A study of Mus musculus with 58 samples.

Results

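The 7 genes described here, Hmgcs1, Idi1, Fdps, Sqle, Lss, Cyp51 and Insig1, were taken by name from the 20018 gene symbols that the array probes matched, and their expression was followed in lung, liver and forestomach of mice given benz(a)anthracene (BaA). The first 6 encode enzymes of cholesterol synthesis and the last a sterol-sensing regulator of the same pathway. None of the 7 is itself a gene of cholesterol uptake, so uptake genes are given from a separate list. Each gene had 1 probe, and all 7 probes were well above background and unsaturated on all 58 arrays.

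Male MutaTMMouse animals, a transgenic strain that carries a bacterial reporter gene in every cell for scoring mutations, were about 10 weeks old and were dosed by oral gavage each day for 28 days. D0 mice received olive oil alone, and the dosed mice received BaA, which is a polycyclic aromatic hydrocarbon, dissolved in that oil. The daily dose was 20 mg/kg-bw in D1, 40 in D2 and 80 in D3. Tissues were taken 72 h after the last dose, RNA came from a random section of each tissue, and the mice were fed freely under a light and dark cycle. The time of day of collection was not given in the sources used here. Lung was measured in 5 mice of every group, liver in 5, 5, 5 and 4 mice from D0 to D3 (no mouse 20), and forestomach in 4, 5, 5 and 5 (no mouse 5). Mice 1 to 5 were D0, 6 to 10 D1, 11 to 15 D2 and 16 to 20 D3. The number of arrays limits the precision of every value.

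Expression is given as a log2 ratio, in which RNA of the tissue, labelled with Cy5, is set against a reference RNA pooled from 11 mouse cell lines, labelled with Cy3 and the same on every array. A ratio of 0 therefore means the same signal as the reference, and a difference of 1 between samples means a 2-fold difference. Ratios of 1 gene can be compared between tissues, but not the ratios of different genes.

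Cholesterol is built from acetyl-CoA in a long chain of reactions, and liver is the main site of its synthesis and export in the body. Hmgcs1 makes HMG-CoA near the start of the chain. Idi1 and Fdps then build farnesyl diphosphate, Fdft1 joins it to squalene, Sqle oxidises squalene, Lss closes the ring to lanosterol, and Cyp51 removes the first methyl group from lanosterol. The genes are transcribed through SREBP-2 (gene Srebf2) when cell sterols are low. Insig1, itself a target of SREBP, holds the SREBP precursor in the endoplasmic reticulum when sterols are plentiful.

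Promoter sequence is shown for Hmgcs1, Cyp51 and Insig1 because these held a sterol regulatory element form or an E-box among the letters searched, which the windows of Idi1 and Lss did not. RefSeq promoters (GRCm38.p6) were matched for 5 of the 7 genes, namely Hmgcs1, Idi1, Lss, Cyp51 and Insig1. The 250 bases before the transcription start are printed 5′ to 3′ on the strand of the gene. The windows are chr13:119690101-119690350 (plus strand) for Hmgcs1, chr5:4104698-4104947 (minus strand) for Cyp51 and chr5:28071162-28071411 (plus strand) for Insig1. Capitals mark TCACNNCA or TCACNCCAC (forms of the sterol regulatory element), CCAAT (the NF-Y box) and CACGTG (an E-box), searched on both strands.
Hmgcs1: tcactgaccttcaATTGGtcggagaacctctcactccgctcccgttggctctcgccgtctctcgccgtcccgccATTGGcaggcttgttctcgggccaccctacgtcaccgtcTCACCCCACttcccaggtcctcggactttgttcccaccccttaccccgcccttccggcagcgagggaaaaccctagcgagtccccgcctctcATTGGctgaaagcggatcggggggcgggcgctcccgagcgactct
Cyp51: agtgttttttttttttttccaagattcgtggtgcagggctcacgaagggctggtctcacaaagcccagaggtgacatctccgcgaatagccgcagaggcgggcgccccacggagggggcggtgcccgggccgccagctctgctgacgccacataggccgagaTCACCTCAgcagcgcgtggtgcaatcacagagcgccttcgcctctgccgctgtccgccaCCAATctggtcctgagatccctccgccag
Insig1: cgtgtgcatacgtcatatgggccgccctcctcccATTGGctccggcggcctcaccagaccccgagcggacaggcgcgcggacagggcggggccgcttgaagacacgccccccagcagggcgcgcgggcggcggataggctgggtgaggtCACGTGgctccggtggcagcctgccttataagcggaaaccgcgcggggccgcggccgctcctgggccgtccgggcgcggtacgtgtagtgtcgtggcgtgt

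TCACNCCAC was found in the Hmgcs1 window, where the match begins 137 bases before the start. The same letters were in 1.05% of the 32851 windows of this length. The shorter TCACNNCA, which any TCACNCCAC also contains, was in the Hmgcs1 and Cyp51 windows and in 11.4% of all windows. CCAAT was in all 5 windows of these genes, against 33.8% of all windows, with 3 copies before Hmgcs1 that begin 237, 176 and 45 bases from the start. GGGCGG, the GC box bound by Sp1, was also in all 5 windows and in 32.7% of all. CACGTG was in the Insig1 window alone among the 5 and in 6.02% of all. These matches are descriptions of letters in this stretch.

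The study asked whether polycyclic aromatic hydrocarbons share a mode of action, for which each compound was compared with vehicle in each tissue, and for these 7 genes no dose of BaA passed the test in any tissue. A change was called where limma's moderated test gave an adjusted p (Benjamini-Hochberg, over all probes tested in the tissue) no higher than 0.05 and the fold was 1.5 or more. In lung 0 of 7 genes were called at D1, D2 or D3, where 0%, 0.556% and 1.88% of all 30383 tested probes were called. In liver 0 of 7 were called at D1, D2 or D3, against 0.241%, 0.588% and 0.434% of 22789 probes. In forestomach 0 of 7 were called at D1, D2 or D3, against 0%, 0.0124% and 0.0248% of 32318 probes. At an unadjusted p under 0.05, 1 of these 63 comparisons passed, that of Insig1 in forestomach at D2.

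**Figure D1:**
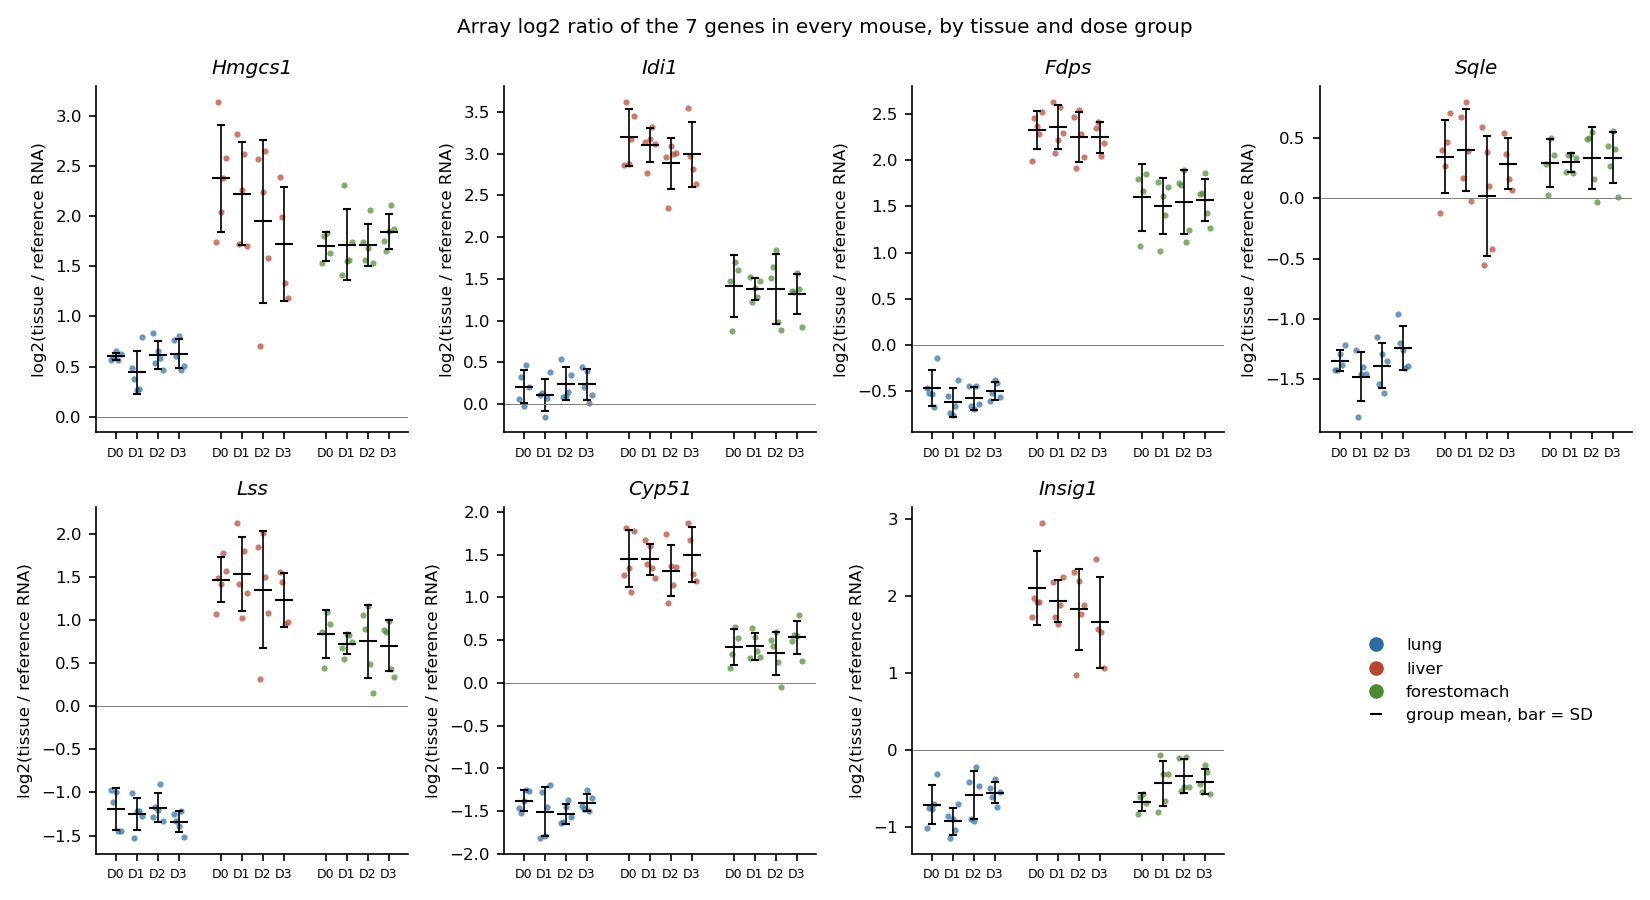
Log2 ratio of tissue to reference RNA (y axis, arbitrary zero set by the reference) for each of the 7 genes in every mouse, by dose group (x axis, D0 to D3) and tissue (colour), with the group mean and SD in black and a different y range in each panel. The lung mean lies lowest for each gene, by little for Insig1 against forestomach, Hmgcs1 spreads most from mouse to mouse in liver, and each dosed group overlaps D0 of its tissue except Insig1 in forestomach at D2.

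Lung differed from liver far more than the dose groups of a tissue differed from D0. In vehicle mice lung was below liver for all 7 genes. Of the 21868 probes tested in both tissues 50.6% were called in either direction and 22.8% as lower in lung. The difference ran from -1.69 for Sqle to -2.99 for Idi1 on the log2 scale (with Agilent's processed signals, from -1.81 for Sqle to -3.86 for Cyp51), with a median of -2.79 over the 7 genes and 0.0027 over all probes. In bulk tissue, fewer cells of a type and less RNA per cell cannot be told apart, and each slide held arrays of 1 tissue, so slide and tissue cannot be told apart either.

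Idi1, the isomerase that makes the building block for farnesyl diphosphate, showed a wide gap. Its ratios in the D0 livers of mice 1 to 5 were 2.86, 3.62, 2.87, 3.18 and 3.45, and in the D0 lungs of the same mice 0.06, 0.33, -0.02, 0.47 and 0.21. In the D0 forestomachs of mice 1 to 4 they were 1.48, 0.88, 1.70 and 1.60. The 3 sets of values did not overlap, and the order was liver, forestomach, lung. How many of all probes were separated between tissues in this way was not counted. Liver exceeded lung 7.94-fold (log2 difference of lung to liver -2.99, SE 0.17, limma adjusted p = 5.86e-22) and forestomach 3.44-fold (1.78, SE 0.18, adjusted p = 1.2e-12).

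Lung was lower than liver by a similar size for Cyp51 (-2.83, SE 0.14), Insig1 (-2.82, SE 0.20), Fdps (-2.79, SE 0.15) and Lss (-2.66, SE 0.20), and by less for Hmgcs1 (-1.77, SE 0.24) and Sqle (-1.69, SE 0.16). The limma adjusted p-values of these 6 lay between 2.61e-24 and 3.72e-09. Within single mice the direction was uniform: lung was below liver in 19 of 19 mice for each of the 7 genes, dosed mice included.

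Lung was also below forestomach for 6 of the 7 genes, where 31.8% of 28434 probes were called in either direction and 15% as lower in lung. The differences were -2.06 (SE 0.16) for Fdps, -2.03 (SE 0.22) for Lss, -1.80 (SE 0.15) for Cyp51, -1.64 (SE 0.17) for Sqle, -1.20 (SE 0.18) for Idi1 and -1.10 (SE 0.25) for Hmgcs1. Each of these 6 genes was lower in lung in 19 of 19 mice. Insig1 was lower in lung in 17 of 19 mice but did not pass in D0. Its D0 ratios were -1.02, -0.76, -0.77, -0.70 and -0.32 in lung and -0.84, -0.62, -0.57 and -0.69 in forestomach, so the groups overlapped, and the difference of -0.04 (SE 0.21, 95% interval -0.47 to 0.39) did not pass (limma adjusted p = 0.896). Between D1 mice of both tissues it was -0.49 (limma adjusted p = 0.0324), short of the fold of 1.5.

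Between liver and forestomach the 7 genes did not move as a block. In D0 mice 6 of 7 were called higher in liver, against 20.7% of 22074 probes (44.9% in either direction). Insig1 led with 2.78 (SE 0.21), a 6.89-fold difference, from liver ratios of 1.73, 1.98, 1.93, 1.93 and 2.95. Idi1 followed as above, then Cyp51 with 1.03 (SE 0.15), Fdps with 0.73 (SE 0.16), Hmgcs1 with 0.68 (SE 0.25) and Lss with 0.63 (SE 0.22). Sqle did not pass. Its D0 ratios were -0.12, 0.40, 0.27, 0.47 and 0.71 in liver and 0.28, 0.03, 0.50 and 0.36 in forestomach, and the difference was 0.05 (SE 0.17, 95% interval -0.28 to 0.39, limma adjusted p = 0.787). Across all doses Insig1, Idi1, Cyp51 and Fdps were higher in liver in 18 of 18 mice, Lss in 16, Hmgcs1 in 13 and Sqle in 8.

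The smaller of these differences rested on a few arrays and on the scaling. Without D0 mouse 2, Fdps (0.52), Hmgcs1 (0.52) and Lss (0.49) lost the call, leaving 3 of 7 genes called, and without D0 mouse 4 Hmgcs1 (0.65) lost it too. Leaving out mouse 2 dropped its liver as well as its forestomach, and the part of each was not tested. Its liver had the highest Hmgcs1 ratio of the 19 livers, 3.14. Its forestomach Hmgcs1 ratio, 1.8, lay within the D0 range of 1.53 to 1.83. Its forestomach ratios of Fdps (1.07) and Lss (0.44) were the lowest of D0. The forestomach of mouse 2 had a mean ratio of 6.26 over 8 glandular stomach markers, described further on. In the other D0 forestomachs that mean was 0.80 to 1.08, so the D0 comparison included 1 piece with high glandular signal. Arrays centred on their median instead of loess left 1 of 7 called higher in liver, Insig1, with Idi1 (1.02), Cyp51 (0.09) and Fdps (0.02) not passing and Hmgcs1 (-0.03) and Lss (-0.31) on the other side of 0. That scaling moved the median of all probes to -0.68, with 7.16% of probes called higher in liver and 45.3% lower. Lung stayed below liver for 7 of 7 and below forestomach for 6 of 7 under that scaling, with all-probe medians of 0.20 and -0.38. Of all probes, 12.2% were then called lower in lung than in liver and 24.2% lower in lung than in forestomach.

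**Figure D2:**
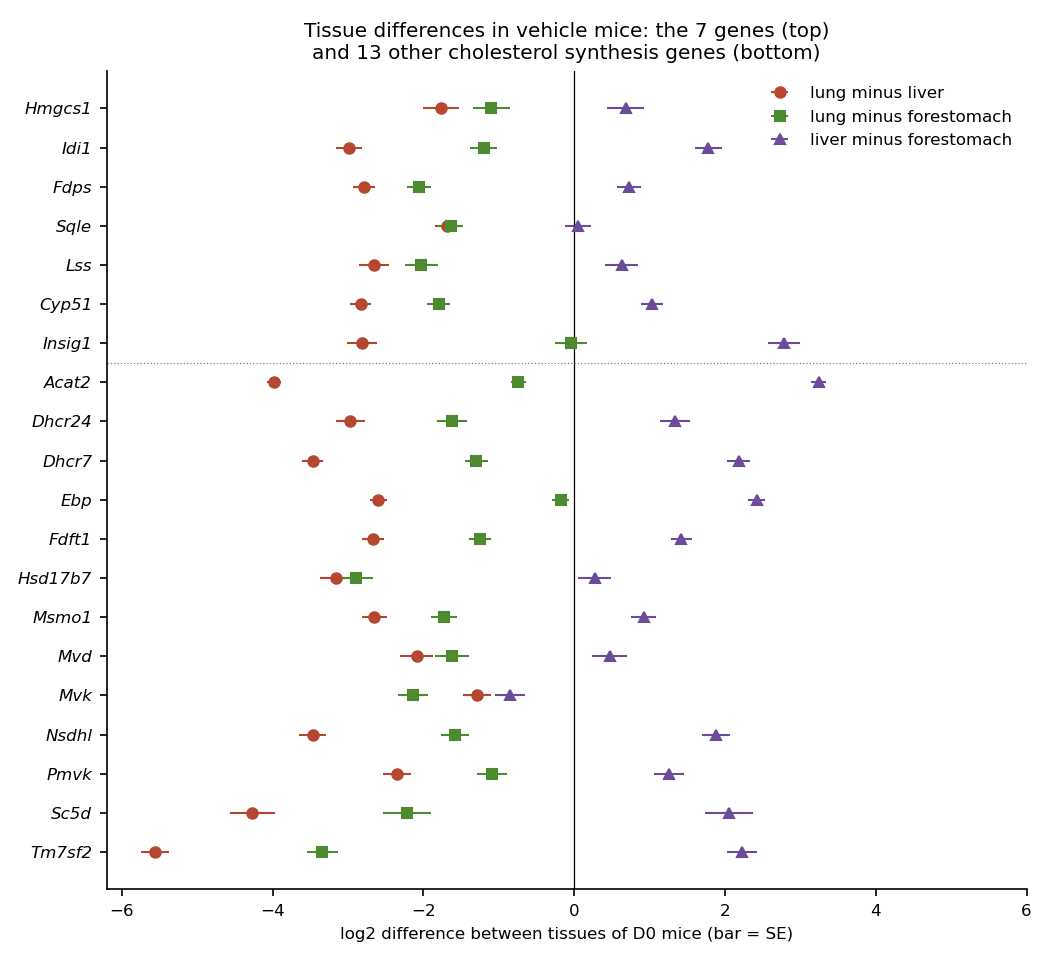
Log2 difference between the tissues of D0 mice (x axis, bar = SE from limma) for the 7 genes above the dotted line and 13 other cholesterol synthesis genes below it, with 1 symbol for each tissue pair. Lung minus liver lies below 0 for all 20 genes, and liver minus forestomach is near 0 for Sqle and 2.78 for Insig1.

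The tissue order was shared by most of the pathway. Of 14 other cholesterol synthesis genes, 14 were called lower in lung than in liver with a median of -2.82, 13 lower in lung than in forestomach with Ebp not passing, and 11 higher in liver than in forestomach with 1 lower, Mvk. With median centring the first count was 13, against 12.2% of all probes lower in lung than in liver. The last was then 4 higher and 1 lower in liver, against 7.16% and 45.3% of all probes. Fdft1 (-2.67, SE 0.14), Msmo1 (-2.65, SE 0.16) and Dhcr7 (-3.47, SE 0.14), which act before Sqle, after Cyp51 and late in the pathway, were lower as well. Srebf2, whose product drives these genes, did not follow that order. Its lung ratio was 0.10 above liver (SE 0.11, limma adjusted p = 0.399) and both were below forestomach, by -1.20 and -1.30.

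Of the regulators beside Insig1, its paralogue Insig2 was 6.46-fold lower in lung than in liver (-2.69, SE 0.35) and did not differ from forestomach by the test (0.20, SE 0.37, limma adjusted p = 0.669). Srebf1 was lower in lung than in liver (-1.37, SE 0.12). Of the 6 sterol-sensing genes tested, 3 were called lower and 1 higher in lung than in liver, the last being Mbtps1, a protease that cleaves SREBP (0.78, SE 0.06). Uptake and transport genes were mixed. Of 6 tested, 4 were called lower in lung than in liver and 2 higher, and against forestomach 3 were higher in lung and 0 lower. Stard4, which carries cholesterol within the cell, was lower in lung than in liver (-2.11, SE 0.13), whereas Npc2, which moves cholesterol out of lysosomes, was higher (2.94, SE 0.10), as was Mylip (0.99, SE 0.15). Mbtps1, Npc2 and Mylip were chosen after their values were seen.

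In lung the 7 genes lay close to their vehicle level at every dose. The 21 log2 changes lay between -0.21 and 0.15 with SEs of 0.09 to 0.14, and the 95% intervals of all 21 stayed within 1.41-fold of no change. At D1 all 7 differences were negative, with a median of -0.13, and at D3 4 were positive and 3 negative, with a median of 0.03. The lowest adjusted p was 0.753 at D1, 0.531 at D2 and 0.472 at D3. With median centring, which moved the median of all probes at D2 to 0.38, the D2 values were 0.28 (Cyp51) to 0.62 (Idi1), with a lowest adjusted p of 0.327.

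Hmgcs1 in lung shows the scale. Its D0 ratios were 0.57, 0.59, 0.65, 0.57 and 0.62, its D1 ratios 0.49, 0.38, 0.27, 0.28 and 0.79, its D2 ratios 0.83, 0.54, 0.65, 0.58 and 0.47, and its D3 ratios 0.76, 0.60, 0.80, 0.47 and 0.51. Each dose group reached both above and below the D0 range, and the change at D3 was 0.03 (SE 0.09, 95% interval -0.17 to 0.22).

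Insig1 in lung had D0 ratios of -1.02, -0.76, -0.77, -0.70 and -0.32 and D3 ratios of -0.50, -0.62, -0.38, -0.75 and -0.55. The groups overlapped, and the change was 0.15 (SE 0.14). Its slope over the 4 doses, 0.25 over 80 mg/kg-bw/day (SE 0.14), had the lowest adjusted p of the 7 in lung, 0.282.

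A slope on dose was called at an adjusted p of 0.05 or less with no minimum fold. It was called for 0 of 7 genes in lung, although 11.6% of lung probes were called (7.28% rising). It was called for 0 of 7 in liver, against 0.676% of probes, and for 0 of 7 in forestomach, against 0.0248%. At an unadjusted p under 0.05 the slope passed for 0 of 7 genes in each tissue by limma. Of the 14 other synthesis genes, 4 had a called rise with dose in lung and 0 a fall: Fdft1 (0.39 over 80 mg/kg-bw/day, SE 0.09, adjusted p = 0.00641), Msmo1 (0.30, SE 0.09, adjusted p = 0.0394), Mvk (0.27, SE 0.09, adjusted p = 0.0444) and Mvd (0.24, SE 0.08, adjusted p = 0.0475). Srebf2 rose as well (0.25, SE 0.07, adjusted p = 0.029). Fdft1 and Mvk kept the call without the lungs of mice 5, 14 and 16, whereas Msmo1, Mvd and Srebf2 lost it (adjusted p = 0.101, 0.132 and 0.0828). With median centring 0 of 14 were called, as were 0% of all lung probes. Of the 4, Msmo1 alone kept the call on the Cy5 channel alone, Fdft1 and Msmo1 with Agilent's processed signals, and Fdft1, Msmo1 and Mvk in the authors' table. Srebf2 lost it in each of these (adjusted p = 0.226, 0.0582 and 0.0509). Between D3 and D0, 0 of the 14 passed the fold of 1.5. Whether the slopes of these 4 genes differed from those of the 7 was not tested.

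The lungs of mice 5, 14 and 16 stood apart. The mean ratio of 6 skeletal muscle markers was 5.30 in mouse 5 and 1.73 in mouse 16, and below 0 in the other lungs. That of 8 squamous epithelium markers was 3.83 in mouse 5 and 1.95 in mouse 16, with 0.50 the highest of the others, and that of 8 fat markers 5.26 in mouse 14, with 2.55 the highest of the others. Without these 3 lungs 0 of 7 genes were called at any dose, with a lowest adjusted p of 0.247 at D3. Genes of the circadian clock also differed between D0 and D3 in lung, with no test made of the list. The mean of 10 clock output genes was 0.00 to 0.94 in D0 and 1.05 to 1.63 in D3, groups that did not overlap. In forestomach the same mean was -0.47 to 0.32 in D0 and 0.54 to 0.82 in D3, again with no overlap, and in liver 0.10 to 1.39 and 0.90 to 1.23. Of single probes, 7.47% in lung and 1.96% in forestomach had D3 and D0 groups that did not overlap. The part of these markers and clock genes in the values of the 7 genes was not tested, apart from the liver correlations with clock output given at the end. All 8 lung epithelial markers were above background on all lung arrays, all 8 hepatocyte markers on all liver arrays and all 8 squamous markers on all forestomach arrays. Detection was not particular to the tissue for all of them. Of the squamous markers, 2 were above background on all lung arrays and 2 on all liver arrays. Among these Trp63 had a mean ratio of 0.58 in lung, 0.55 in liver and 0.26 in forestomach. Of the lung epithelial markers, 2 were above background on all forestomach arrays.

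**Figure D3:**
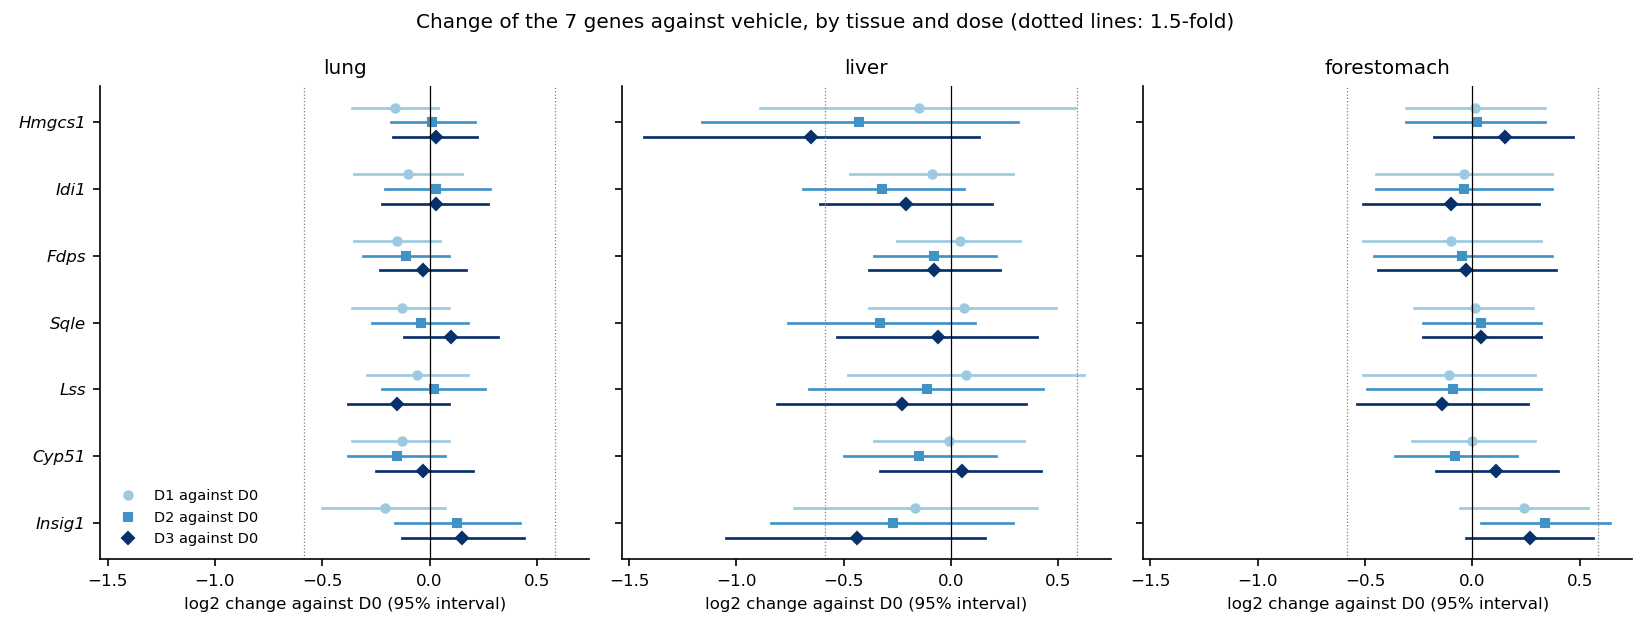
Log2 change against D0 (x axis) with its 95% interval from limma for the 7 genes (rows) at D1, D2 and D3 in each tissue, the dotted lines marking a 1.5-fold change. The widest interval is that of Hmgcs1 in liver at D3, from -1.43 to 0.13, and only the interval of Insig1 in forestomach at D2 leaves out 0.

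In liver most point estimates were below 0 at the upper doses, but none of the shifts passed the test. At D2 all 7 log2 changes were negative, from -0.43 to -0.08 with a median of -0.27, and at D3 6 of 7 were negative, from -0.65 to 0.05 with a median of -0.21. SEs ran from 0.14 to 0.37. The lowest adjusted p was 0.497 at D2 and 0.441 at D3. Without mouse 12 the D2 values were closer to 0, with Hmgcs1 at -0.12 and Insig1 at -0.06, and those of Fdps (0.01) and Lss (0.14) were above it. The 7 genes varied together in liver, as shown further on, so 7 estimates of the same sign are not 7 separate observations.

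Hmgcs1, the HMG-CoA synthase, had the largest estimate. Its liver ratios were 1.74, 3.14, 2.04, 2.38 and 2.58 in D0 and 2.82, 1.72, 2.26, 2.62 and 1.70 in D1. They were 2.57, 0.70, 2.24, 2.65 and 1.58 in D2 and 2.39, 1.99, 1.33 and 1.18 in D3. The 2 lowest D3 mice, 18 and 19, were below every D0 mouse, while mouse 16 was in the middle of the D0 range. The change at D3 was -0.65 (SE 0.37, 95% interval -1.43 to 0.13, limma adjusted p = 0.441). Within the 3 slides that held liver, each with 1 or 2 mice per group, the D3 minus D0 differences were -0.46, -0.95 and 0.25.

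Insig1 in liver had ratios of 1.73, 1.98, 1.93, 1.93 and 2.95 in D0 and 2.48, 1.57, 1.53 and 1.06 in D3. The highest D0 value, in mouse 5, stood 0.97 above the next, and in D3 mouse 16 was high while the other 3 lay below all D0 mice. The change was -0.44 (SE 0.29, 95% interval -1.05 to 0.16). Cyp51 was the only gene with a D3 estimate above 0 in liver, 0.05 (SE 0.18), from D3 ratios of 1.87, 1.67, 1.28 and 1.19.

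For the other 4 genes the D3 changes in liver were -0.23 (SE 0.28) for Lss, -0.21 (SE 0.19) for Idi1, -0.08 (SE 0.14) for Fdps and -0.06 (SE 0.22) for Sqle. The 95% interval of Fdps, 0.769-fold to 1.17-fold, was the narrowest, so a 1.5-fold change of this gene lay outside it. That of Lss, 0.569-fold to 1.27-fold, still held a 1.5-fold fall.

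Liver genes of the wider pathway were not called either: 0 of 14 other synthesis genes, 0 of 6 sterol-sensing genes and 0 of 7 tested uptake genes at any dose. Values at D3 were -0.22 (SE 0.20) for Fdft1, 0.05 (SE 0.11) for Srebf2 and -1.04 (SE 0.59) for Insig2. The medians at D3 were -0.09 for the other synthesis genes and -0.15 for the uptake genes, beside -0.21 for the 7.

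The forestomach gave the one comparison in which dose groups did not overlap. Insig1 had ratios of -0.84, -0.62, -0.57 and -0.69 in D0 and -0.10, -0.53, -0.48, -0.09 and -0.48 in D2, so all 5 D2 mice were above all 4 D0 mice. Groups did not overlap in that comparison for 1.18% of all probes. The change was 0.34 (SE 0.14, 95% interval 0.04 to 0.64, unadjusted p = 0.0267, limma adjusted p = 1). In D1 the ratios were -0.81, -0.07, -0.32, -0.67 and -0.32, and in D3 -0.45, -0.55, -0.20, -0.29 and -0.58, both overlapping D0, with changes of 0.24 (SE 0.14) and 0.27 (SE 0.14). The other 18 comparisons of the 7 genes in forestomach lay between -0.14 and 0.15.

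In forestomach Stard4 changed by 0.29 (SE 0.12) at D3 and was not called (limma adjusted p = 0.899).

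Forestomach arrays differed in how much glandular stomach they held, and in their fat and hepatocyte markers as well. The mean ratio of 8 glandular markers, among them the gastric proton pump gene Atp4a, was 5.37 to 6.82 on 10 arrays, 0.80 to 1.93 on 7 and 2.23 or 3.29 on the remaining pair. The 10 were 1 of 4 D0 mice, 5 of 5 D1 mice, 2 of 5 D2 mice and 2 of 5 D3 mice, so dose and tissue make-up were uneven. The mean of the 8 fat markers was 3.89, 1.06, 4.18 and 4.69 in the forestomachs of D0 mice 1 to 4. Its median was 1.2 in D1 (1.13 to 4.21), 1.85 in D2 (1.3 to 4.1) and 1.53 in D3 (0.94 to 2.83). That of 8 hepatocyte markers ran from 0.25 to 3.06 over the forestomachs. The part of fat or hepatocyte signal in the dose and tissue comparisons was not tested.

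Fdps, Lss, Idi1 and Sqle were lower on the arrays with more glandular signal. The median Fdps ratio was 1.34 on the 10 and 1.79 on the 7, that of Lss 0.52 and 0.95, that of Idi1 1.25 and 1.60, and that of Sqle 0.22 and 0.50. The Lss values of the 10 reached 0.84 and those of the 7 started at 0.86. How many of all probes were separated between these sets was not counted. Hmgcs1 (1.77 and 1.68) and Insig1 (-0.40 and -0.53) ran the other way by small amounts, and Cyp51 had 0.32 and 0.53. These sets were drawn from the markers and are given with no test. Slide was uneven between them as well. The slide that held the forestomachs of mice 2, 7, 10, 15, 19 and 20 had only arrays of the 10 and none of the 7. Of the spots, 38.36% to 42.11% were above background on that slide and 52.44% to 69.21% on the other forestomach slides. The parts of slide and of fat signal in these differences were not tested. With the marker mean as a covariate, 0 of 7 genes were called at any dose, with a lowest adjusted p of 0.267 at D1, but the D1 values moved. Idi1 went from -0.04 to 0.40, Fdps from -0.10 to 0.34, Lss from -0.11 to 0.33 and Sqle from 0.01 to 0.27. At D2 Insig1 kept 0.33 in that fit.

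**Figure D4:**
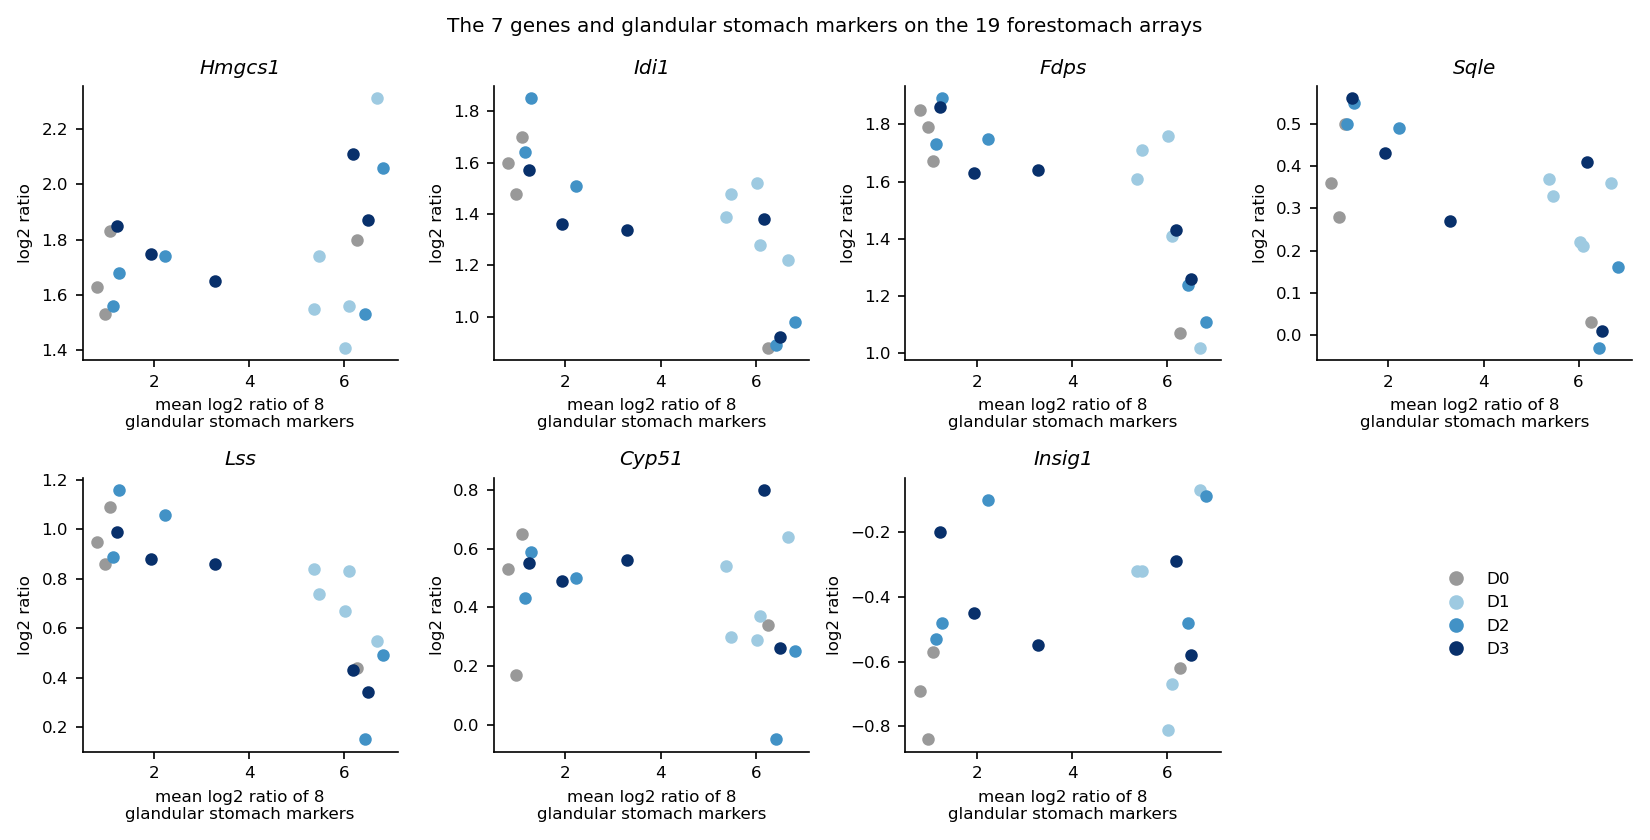
Log2 ratio of each of the 7 genes (y axis) against the mean log2 ratio of 8 glandular stomach markers (x axis) on the 19 forestomach arrays, coloured by dose group. Points fall into a low set of 7, a high set of 10 and 2 between, and Fdps, Lss, Idi1 and Sqle lie lower in the high set.

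Whether the D3 change of a gene differed between tissues was tested directly. Of the 7 genes, 0 passed for lung against liver, where 2.07% of probes were called, 0 for lung against forestomach (0.257%) and 0 for liver against forestomach (0.0453%). Insig1 had the lowest unadjusted p-values: its D3 change was 0.71 lower in liver than in forestomach (difference -0.71, SE 0.30) and 0.60 higher in lung than in liver (SE 0.29). Hmgcs1 differed by -0.80 (SE 0.36) between liver and forestomach. The lowest adjusted p over the 7 genes was 0.36 for lung against liver and 0.605 for liver against forestomach. At an unadjusted p under 0.05, 1, 0 and 2 of 7 passed in the 3 pairs.

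Hmgcs1, Insig1, Lss and Sqle varied widely between livers of the same dose. The residual SD of Hmgcs1 in liver was 0.62, above that of 98.2% of the tested liver probes, whose median SD was 0.18. Insig1 had 0.47, Lss 0.46, Sqle 0.36, Idi1 0.31, Cyp51 0.29 and Fdps 0.23, the last above 72.9% of probes. In lung the same genes had SDs of 0.15 to 0.23 beside a median of 0.17, and Hmgcs1, the most variable in liver, had 0.15. In forestomach the SDs were 0.20 to 0.31 beside 0.19, and there Fdps varied more than in liver (0.31) and Idi1 as much (0.31). No test of the difference in spread between tissues was made.

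The variation in liver was shared between the genes. Over the 19 livers all 21 pairwise Pearson correlations were positive, from 0.46 to 0.86 with a median of 0.68, and the Spearman correlations ran from 0.44 to 0.86 with a median of 0.66. By permutation test, adjusted over the 84 pairs examined in liver, lung and both forestomach sets, 20 of 21 passed 0.05 for Pearson's r and 16 of 21 for Spearman's rho. The closest pair was Fdps and Lss (r = 0.857, rho = 0.86, permutation adjusted p = 0.00042 for r), and the loosest Lss and Cyp51 (r = 0.456, permutation adjusted p = 0.11). Leaving out the 2 mice farthest from the median of the first gene gave r of 0.20 to 0.79 with a median of 0.54. After the dose group means were removed, the median was 0.69. The livers share a reference RNA, a normalisation and 3 slides.

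Mouse 12, of the D2 group, had the lowest liver value of all 19 for each of the 7 genes: 0.70 for Hmgcs1, 2.35 for Idi1, 1.91 for Fdps, -0.55 for Sqle, 0.32 for Lss, 0.94 for Cyp51 and 0.98 for Insig1. Its hepatocyte marker mean was 7.52, the highest of the 19 livers, which began at 6.91. Without mouse 12 the 21 correlations were still all positive, from 0.27 to 0.83 with a median of 0.56. In the livers of 5 mice all 7 genes were below their tissue mean, and in 4 all 7 were above it. Mice 1 (D0), 12 and 15 (D2), and 18 and 19 (D3) formed the first set, and mice 2 and 5 (D0), 6 (D1) and 16 (D3) the second. In lung 0 of 20 mice had all 7 on the same side.

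**Figure D5:**
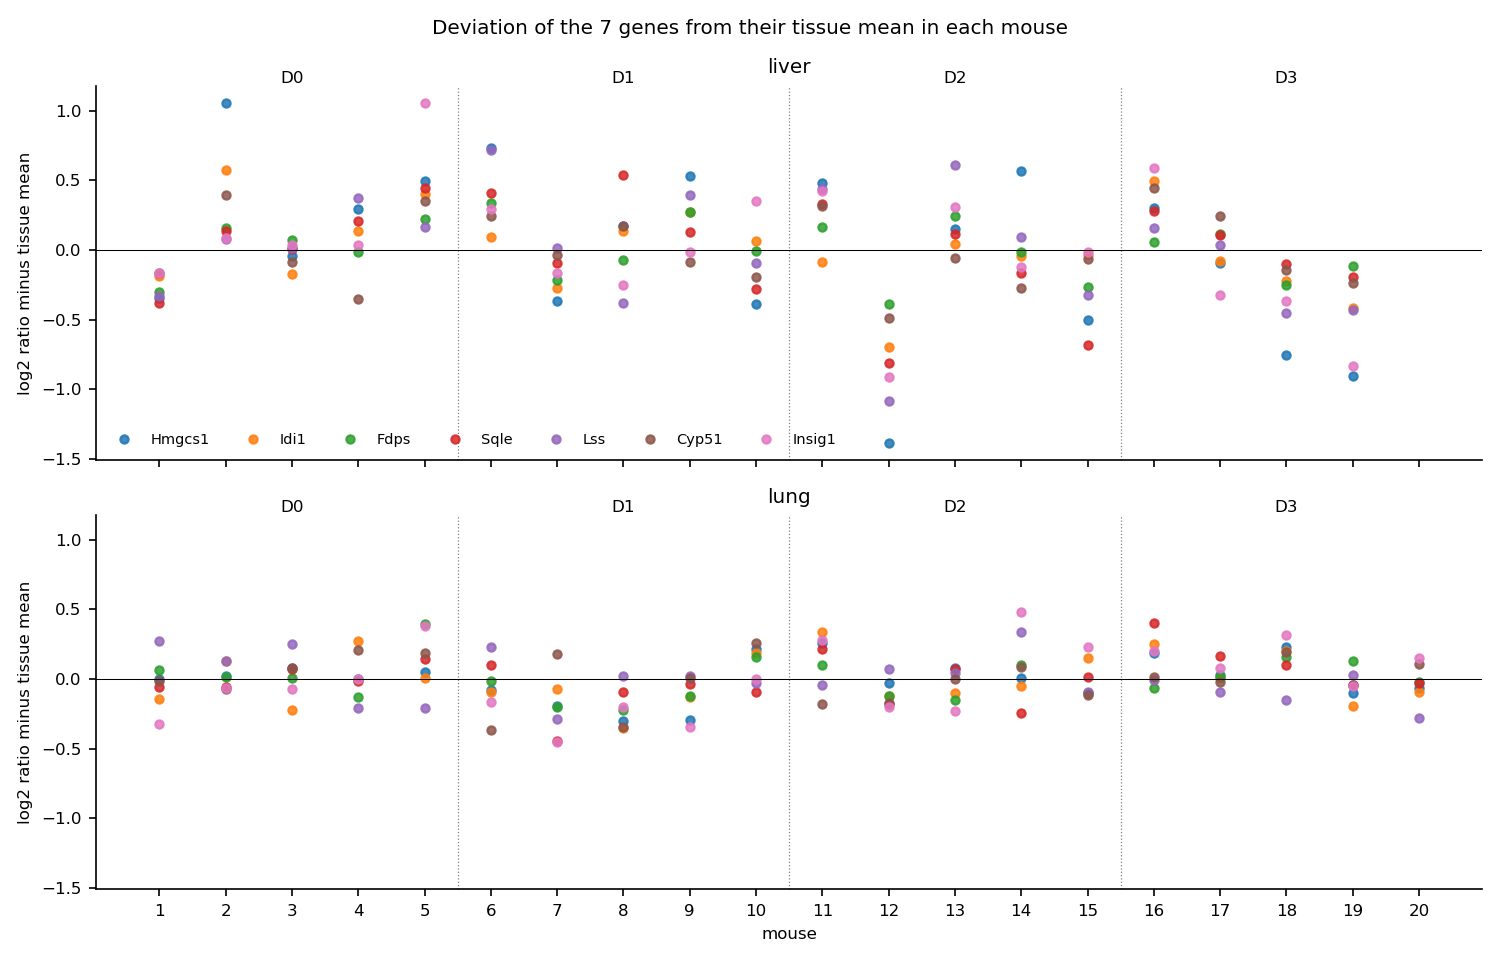
Log2 ratio of each of the 7 genes minus its mean over the tissue (y axis) in each mouse (x axis, dose groups separated by dotted lines), for liver above and lung below. In liver the genes of a mouse move together, with mouse 12 lowest for all 7, and in lung the points stay within about 0.5 of the mean.

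In lung the correlations were mixed, from -0.41 to 0.68 with a median of 0.33 (Spearman -0.50 to 0.65, median 0.28), and 6 of 21 passed for r and 4 for rho by the same permutation test. The forestomach arrays fell into separate sets by glandular signal, so they were not pooled for the correlations between members. Within the 10 arrays of high glandular signal r ran from -0.63 to 0.83 (median 0.41, 5 of 21 passing by permutation), and within the 7 of low signal from -0.15 to 0.85 (median 0.53, 2 of 21 passing by permutation). Leaving out the 2 farthest arrays moved the medians to 0.22 in lung, 0.30 in the high set and 0.38 in the low set.

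The genes most like the members were looked for over all genes with a symbol, by Pearson's r with the mean of the 7 members over the arrays of a tissue. The members themselves enter that mean, so their own ranks are no finding. In lung the mean still followed Lss (r = 0.0278) and Cyp51 (0.4) weakly, and the other members with r of 0.605 to 0.868. In forestomach it followed Hmgcs1 (0.168) and Insig1 (0.339) weakly, and the others with r of 0.661 to 0.977. In these tissues the mean thus stands for only some of the members. In liver, Fdft1 had r = 0.909 and ranked 2 of 12034 genes over 19 arrays. Scd1, a fatty acid desaturase (r = 0.837), Mvk (0.808) and Msmo1 (0.78) were among the 27 highest. Outside the pathway lists the 5 nearest were Srxn1 (0.872), Atf5 (0.872), Parn (0.868), Rdh11 (0.854) and Pltp (0.843). Srebf2 (0.166) was less like the mean, and Cyp7a1, the rate-limiting enzyme of bile acid synthesis, had r = -0.602.

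In forestomach Msmo1 ranked 2 of 15078 genes (r = 0.876), Fdft1 had r = 0.79 and Srebf2 r = 0.728, over 19 arrays that include both sets. The 5 nearest outside the lists were Aasdhppt (0.83), Gm10389 (0.827), Nagk (0.807), Cmtm6 (0.803) and 1700029M20Rik (0.797). In lung, over 20 arrays and 14515 genes, Fdft1 ranked 12 (r = 0.679) and Msmo1 21 (r = 0.657). The nearest outside the lists were Scrn2 (0.769), Gcat (0.731), Cblc (0.707), Kcnk7 (0.702) and Aacs (0.695). Fdft1 and Msmo1 were thus within the 27 highest genes in each of the 3 tissues, and the lists of 5 nearest genes held no gene in common between tissues. The forestomach ranks pooled arrays of low and high glandular signal, and Fdps, Lss, Idi1 and Sqle were lower with more of it. Those ranks therefore cannot tell likeness to the members from differences in tissue make-up or slide. Ranks within the glandular sets were not computed.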

How the data were processed

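The authors deposited scanner output, which per the file headers holds spot intensity on a linear scale (Feature Extraction 10.7.3.1, 62976 spots). The authors also deposited log2 ratios normalised by LOWESS, used here as an alternative (r of 0.995 to 0.998 per array with the ratios computed here, median absolute difference 0.033). Median signals without background correction were normalised by loess within each array. Outlier spots (0.495%) were left out and spots of a probe averaged. Accessions were named through RefSeq (GRCm38.p6): 26413 of 55681 probes matched. Tests took the probes whose Cy5 signal was well above background on 4 or more arrays of the tissue. No dye swap was made.

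Contrasts and slopes were fitted with limma 3.58.1 (R 4.3.3), 1 model per tissue, or 1 model of the 12 groups for tissue comparisons. The study's MAANOVA was replaced by limma. Correlations were planned as descriptions, and permutation p-values were added. Between 32.8% and 68.5% of probes were above background per array. Tested on simulated data, the lung D3 contrast recovered 81 of 100 probes changed 1.8-fold and 100 of 100 changed 4-fold among 30383. The liver D3 contrast recovered 91 and 98 among 22789. The forestomach D3 contrast recovered 78 and 95 among 32318, and the D0 contrast of liver and forestomach 83 and 98 among 21703. The simulated noise was drawn separately for each array, with no slide or tissue make-up effects. Rates were not computed separately for probes that spread as widely in liver as Hmgcs1, Insig1, Lss and Sqle. The residual SDs of these genes there were 0.62, 0.47, 0.46 and 0.36, beside a median of 0.18. The liver rates therefore cannot show how often a change of these genes would be called. No pair of replicate arrays was identical (0 of 112).

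Mice were paired across tissues by their labelled number. Deviations of the same mouse correlated with a median r of 0.125 in lung and liver, 0.109 in lung and forestomach and 0.062 in liver and forestomach over 21703 probes (other mice of the same dose, -0.0385, -0.0275 and -0.0125). The members and gene lists were chosen with earlier results of these data known. Named genes were the 7 members, list genes called in a dose contrast or slope, a fixed set of pathway genes, and the 5 genes nearest the members per tissue. Some pathway genes are not reported here. Lists of other synthesis, sterol control, uptake, LXR target, bile acid, fatty acid, clock, fasting and cell marker genes were used. Alternatives were other background corrections, median centring, the Cy5 channel alone, dim-probe filters, slide and mouse blocks, no minimum fold and leaving out each mouse. After the values were seen, other doses for tissue levels and the omission of arrays that stood apart were added.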

Additional observations from a re-analysis of the deposited data

Results flagged for a closer look

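Dixon's test was applied to each of the 7 genes in each of the 12 groups, 84 groups of 4 or 5 mice in all, and 2 (2.38%) held a mouse far from the others, where chance alone gives about 1 in 20. Idi1 in liver had 2.35 in D2 mouse 12, the lowest of 5, with the next at 2.96. Insig1 in liver had 2.95 in D0 mouse 5, the highest of 5, with the next at 1.98. No gene moved one way in every dosed mouse of a tissue and the opposite way in every dosed mouse of another.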

How the results depend on the processing

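None of the 7 genes was called in any dose contrast, slope or difference of D3 changes under any alternative run, with lowest adjusted p-values of 0.113 (lung against liver, without D3 mouse 16), 0.115 (lung slope, without D0 mouse 5) and 0.168 (liver slope, without D3 mouse 16). Lung below liver stayed at 7 of 7 genes and lung below forestomach at 6 of 7 under every alternative. For liver above forestomach, 6 of 7 became 1 with median centring and 3 to 6 when each mouse was left out in turn. Hmgcs1 reversed to -0.0254 and Lss to -0.313 with median centring, and Hmgcs1 to -0.122 when D3 mice stood in for D0 mice. The cause of these reversals was not tested. Hmgcs1 kept the call between liver and forestomach in 28 of 34 settings. Its mean ratios were 2.22 in liver and 1.71 in forestomach in D1, and 1.95 and 1.71 in D2. No paired analysis was possible for the dose contrasts because the dose groups of a tissue share no mouse. With the mouse as a replicate block the tissue comparisons called 7, 6 and 6 genes and the block changed no call (consensus correlation 0.0352). The same held with slide as a random block (0.237). The main limits are 4 or 5 mice per group and the wide spread in liver.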

Other observations

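In liver, genes of neighbouring pathways were not called at any dose. Of 10 tested genes of fatty acid synthesis driven by SREBP-1 0 passed, with -0.55 (SE 0.34) for Fasn and -0.37 (SE 0.31) for Scd1 at D3. Of 8 bile acid genes 0 passed, and Cyp7a1 changed by 1.39 (SE 0.79, limma adjusted p = 0.432) in liver at D3. Of 8 tested LXR target and related genes 0 passed in liver, with 0.18 (SE 0.12) for Abca1, which exports cholesterol. In lung Nr1h2, which encodes the receptor LXR beta, had a called slope (0.39 over 80 mg/kg-bw/day, SE 0.09, limma adjusted p = 0.00571), lost with median centring (adjusted p = 0.976).

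Lung and liver of the same mouse were compared for each of the 7 genes over 19 mice. The closest relation was that of Sqle (r = 0.428, rho = 0.461, permutation p = 0.0685 and 0.0494, adjusted over the 7 genes 0.398 and 0.346), and r without the 2 farthest mice was 0.482. None of the 7 passed after adjustment. Against the mean of 10 clock output genes in the same liver, Insig1 had r = -0.487 and rho = -0.524 over 19 mice (permutation p = 0.034 and 0.0233, adjusted 0.238 and 0.163), with r = -0.609 without the 2 farthest mice. The other 6 genes had r between -0.419 and -0.0161.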
